A study of Bos taurus with 32 samples.

Results

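Fibroblast growth factors (FGFs) and their receptors were followed in the bovine endometrium of repeat breeder (RB) and non-RB cows. The set held the ligands FGF1, FGF2, FGF7, FGF9 and FGF10 and the receptors FGFR1, FGFR2 and FGFR3, and a probe was counted for a gene when the gene name or the description in the array files gave its symbol. By this rule 7 of the 8 genes had a probe, with 8 of the 15208 non-control probes of the array, and FGF7 had none. FGFR2 had 2 probes. The FGF9 probe, ABR6305, was set by name: the array files call it only BE668924, a transcribed locus, and its identity as FGF9 comes from the study, which lists the gene among those that differed in the caruncles of the ipsilateral horn on these same arrays. The FGF9 value in that compartment is therefore not independent of how the gene was chosen.

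The tissue came from 4 RB and 4 non-RB Japanese Black cows, none of them lactating, on Day 15 of the estrous cycle. An RB cow was one that had not conceived after repeated inseminations, and the labels call the non-RB cows normally fertile. From each cow the caruncular (CAR) endometrium, the aglandular areas to which the placenta attaches, and the intercaruncular (ICAR) endometrium, which carries the uterine glands, were taken from the horn ipsilateral to the corpus luteum and from the contralateral horn. The resulting 32 RNA samples were each hybridised to an Agilent array in a single colour, so that each of the 8 groups held 4 arrays. RB cows were defined by their breeding history and showed estrus, though their cycles were not always regular. The study states that its RB cows had been pregnant in the past and then became infertile. Within the study only the non-RB cows conceived. They were given the prostaglandin analogue cloprostenol to end that pregnancy, and then cycled again before they were sampled. Group cannot be told apart from this pregnancy within the study and its treatment.

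FGFs are secreted proteins that bind receptor tyrosine kinases on nearby cells together with heparan sulfate, and the activated receptors signal through the RAS and mitogen-activated protein kinase cascade to genes such as the ETV factors, with Sprouty and dual-specificity phosphatase proteins as feedback inhibitors. In the uterus, FGF7 and FGF10 are stromal ligands that act on the epithelial form of FGFR2, FGF9 acts mainly on stromal receptor forms and on FGFR3, and FGF1 and FGF2 bind a wide range of receptors and act on endothelium and stroma. Ovarian steroids set much of the expression of these ligands in the endometrium.

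Each probe is an oligonucleotide of 60 bases. The sequences of the FGF9, FGF2 and FGFR2 probes are given because the results turn on what they detect: the FGF9 probe is unnamed in the files, FGF2 is measured by a pair of different probes, and FGFR2 by a pair of probes with the same sequence.
FGF9 (ABR6305): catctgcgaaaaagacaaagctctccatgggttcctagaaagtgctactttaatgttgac
FGF2 (ABR7076): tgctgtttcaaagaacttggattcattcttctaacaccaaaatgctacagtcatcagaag
FGF2, other probe (A_73_102433): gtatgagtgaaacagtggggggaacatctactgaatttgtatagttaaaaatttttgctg
FGFR2 (ABR7075 and ABR8201): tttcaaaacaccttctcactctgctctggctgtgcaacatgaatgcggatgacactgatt
The other FGF2 probe carries the symbol only in its accession field and lay outside the rule, so it was kept out of all counts and its values are given beside those of ABR7076. No stretch longer than 10 bases was shared by probes of different members. Positions of the probes in the genome were not analysed here.

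The level of a probe is given as log2 of its processed intensity relative to the 75th percentile of the same array, so that 0 is a probe at that percentile and a step of 1 is a doubling. That percentile was an intensity of 1165 to 4857 on the 32 arrays, and 74.3% to 85.9% of probes were well above background, which is the scanner software's own flag. Replicate spots of a GAPDH control probe had a median standard deviation of 0.153, but reached 1.32 on the arrays of slide 1, which held non-RB replicate 2 of the contralateral CAR and non-RB replicate 1 of the contralateral ICAR. Slide 2 held all 8 arrays of RB replicates 2 and 3 and no other array, so that for these cows the animal and the slide cannot be told apart. RB and non-RB arrays shared a slide only on slides 6 and 8. Arrays that carry the same replicate number and group were treated as coming from the same animal. In these bulk samples fewer cells of a type and less RNA per cell cannot be told apart. All 8 epithelial markers on the array (among them EPCAM, KRT8 and FOXA2) and all 7 stromal markers were well above background on all 32 arrays.

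All members except FGFR1 were well above background on all 32 arrays. The FGFR1 probe was well above background on 11 of 32 arrays, on none of the 4 non-RB arrays and on 1 of the 4 RB arrays of the contralateral ICAR, where it was not tested. No member had a saturated or outlier spot. The 2 FGFR2 probes, which share their sequence, differed by 0.33 on average with an SD of 0.18 over the 32 arrays, and their levels correlated with r = 0.932 over arrays. This SD is a spread between spots of the same array. It holds no variation between labellings, hybridisations, slides or scan sessions. The pair of FGF2 probes correlated with r = 0.718 over the same arrays.

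**Figure D1:**
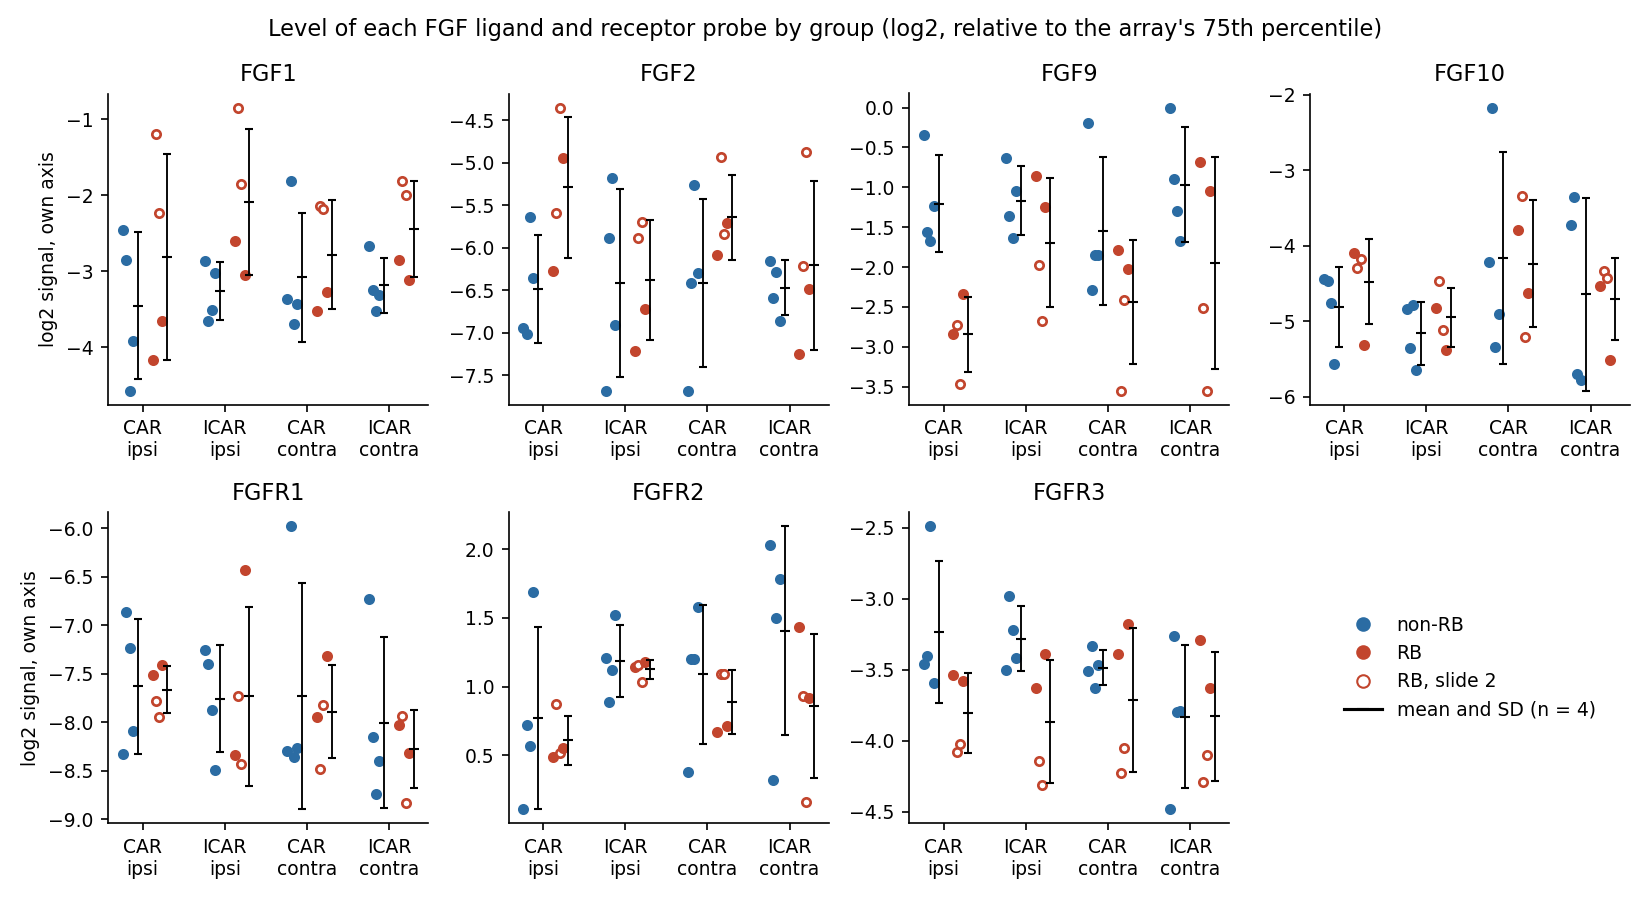
Level of each FGF ligand and receptor probe on every array (vertical axis, log2 signal relative to the array's 75th percentile, with its own range in each panel) in CAR and ICAR of the ipsilateral (ipsi) and contralateral (contra) horn. Blue points are non-RB cows, red points RB cows, open red points the RB arrays of slide 2, and bars the mean and SD of 4 arrays. Levels of different genes cannot be compared between panels, and most FGFR1 points lie at background. The open points of FGFR3 lie together between -4.31 and -4.02, and those of FGF1 between -2.23 and -0.85.

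The first question was whether RB cows differed from non-RB cows in their FGF ligands and receptors, compartment by compartment. FGF9 was the member with the widest gap: in the CAR of the ipsilateral horn all 4 RB cows lay below all 4 non-RB cows, by 3.12-fold on average. FGF2 and FGF1 had higher means and FGFR3 a lower mean in RB cows in some compartments. FGFR2 had a lower mean in all 4, and FGF10 and FGFR1 differed in both directions. No member passed an adjusted p of 0.05 in any compartment by limma (Benjamini-Hochberg over all probes tested), and neither did any other probe, so percent called was 0% in all 4.

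In the CAR of the ipsilateral horn the FGF9 level was -0.34, -1.56, -1.67 and -1.24 in non-RB replicates 1 to 4. It was -2.84, -2.73, -3.47 and -2.34 in RB replicates 1 to 4. The groups did not overlap: the highest RB cow (-2.34) lay below the lowest non-RB cow (-1.67). Non-overlapping groups with the lower level in RB were seen for 1.31% of the 13080 probes tested, and in either direction for 1.97%. The means were -1.21 ± 0.61 and -2.85 ± 0.47 (SD, n = 4 each), a difference of -1.64 (SE 0.36, 95% interval -2.45 to -0.83). The unadjusted limma p was 0.00108 and the adjusted p was 1. The two-sided exact permutation test gave p = 0.0286, the smallest value that 4 against 4 arrays allow. Of the probes tested, 0.168% had a difference as low or lower. FGF9 was known from the study's list for this compartment on these same arrays. Its rank, its separation and its p-values here are therefore not those of a gene chosen beforehand, and give no separate support.

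In the ICAR of the ipsilateral horn the FGF9 level was -0.63, -1.36, -1.64 and -1.04 in non-RB replicates 1 to 4 and -0.86, -1.98, -2.68 and -1.25 in RB replicates 1 to 4. RB replicates 2 and 3 lay below every non-RB cow, and RB replicates 1 and 4 lay among them. The difference was -0.53 (SE 0.40, interval -1.44 to 0.38, adjusted p = 0.863 by limma; exact permutation p = 0.314).

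In the CAR of the contralateral horn the FGF9 level was -0.19, -2.29, -1.85 and -1.85 in non-RB replicates 1 to 4 and -1.79, -3.55, -2.41 and -2.02 in RB replicates 1 to 4. The groups overlapped, with non-RB replicate 1 far above the rest. The difference was -0.90 (SE 0.53, interval -2.09 to 0.29, adjusted p = 1 by limma; exact permutation p = 0.2). In the contralateral ICAR the level was 0.00, -0.89, -1.30 and -1.67 in non-RB replicates 1 to 4 and -0.68, -2.51, -3.55 and -1.05 in RB replicates 1 to 4. Again only RB replicates 2 and 3 were below the non-RB cows, and the difference was -0.98 (SE 0.64, interval -2.44 to 0.48, adjusted p = 1 by limma; exact permutation p = 0.257).

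**Figure D2:**
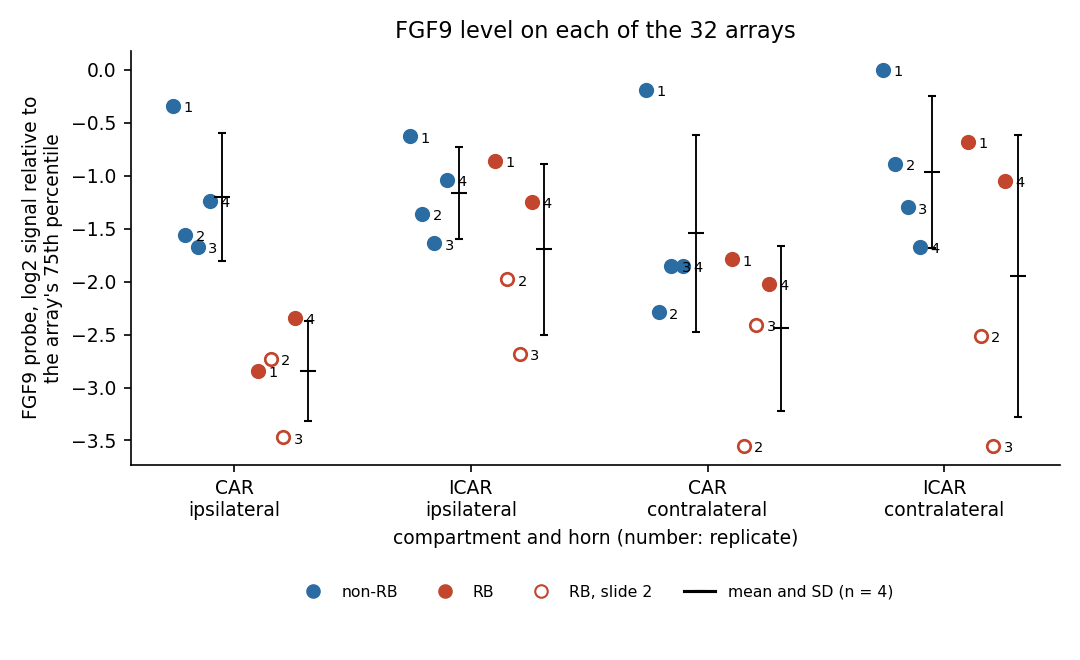
FGF9 level on each of the 32 arrays (vertical axis, log2 signal relative to the array's 75th percentile) by compartment and horn, with the replicate number beside each point. Blue points are non-RB and red points RB cows, open red points are the arrays of slide 2, and bars give the mean and SD of 4 arrays. In the ipsilateral CAR all RB points (-3.47 to -2.34) lie below all non-RB points (-1.67 to -0.34), while in both ICAR groups only the open points lie below the non-RB range.

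The low FGF9 levels in ICAR were thus those of RB replicates 2 and 3. On their slide the ICAR level was -3.55 to -1.98, against -1.25 to -0.68 on the other 4 RB ICAR arrays and -1.67 to 0.00 on the 8 non-RB ICAR arrays. Without the arrays of slide 2 the difference was 0.11 in the ipsilateral and 0.10 in the contralateral ICAR. In CAR it was -1.38 in the ipsilateral horn, where both remaining RB cows still lay below all non-RB cows (adjusted p = 1 by limma, for 2 against 4 arrays), and -0.36 in the contralateral horn. No slide held both groups in the ipsilateral CAR. Within a scan session the difference there was -2.06 (3 RB against 2 non-RB arrays) and -1.09 (1 against 1). In the ipsilateral ICAR, the 2 slides with both groups gave 0.39 and 0.50, with 1 array a group. In the contralateral CAR they gave -0.17 and -1.61, and in the contralateral ICAR 0.25 and 0.22.

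Epithelial markers were set beside FGF9 in each compartment. In the ipsilateral CAR the log2 of the summed level of the 8 markers was 4.52 to 5.39 in non-RB cows and 4.11 to 4.71 in RB cows. The brightest markers weigh most in such a sum. In this compartment 8 of 8 markers had a negative difference (median -0.40, against 0.02 over all probes), with 0 of 8 past the test. In the contralateral ICAR the sum was 4.96 to 6.27 in non-RB and 3.66 to 5.52 in RB cows, again with 8 of 8 negative differences (median -0.42) and 0 past the test. The other compartments were mixed. In the contralateral CAR 3 of 8 markers had a positive difference (median -0.14), with sums of 4.27 to 5.34 in non-RB and 3.84 to 5.33 in RB cows. In the ipsilateral ICAR 5 of 8 were positive (median 0.24), the opposite sign to FGF9, with sums of 4.39 to 5.74 and 4.91 to 5.46. Over the 32 arrays the FGF9 level correlated with this sum with r = 0.763, and with r = 0.705 after the group means were removed. The arrays of a cow and of a slide are not independent, and the part of epithelial content in the FGF9 result was not tested. Summed stromal markers were 6.13 to 7.19 in non-RB and 6.05 to 6.69 in RB cows in the ipsilateral CAR, and 4.92 to 6.55 and 6.17 to 6.56 in the contralateral ICAR, where 7 of 7 had a positive difference (median 0.29) and 0 passed the test. Their correlation with FGF9 over the 32 arrays was -0.10. FGF9 also correlated with summed endothelial (r = -0.606) and smooth muscle markers (r = -0.561).

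**Figure D3:**
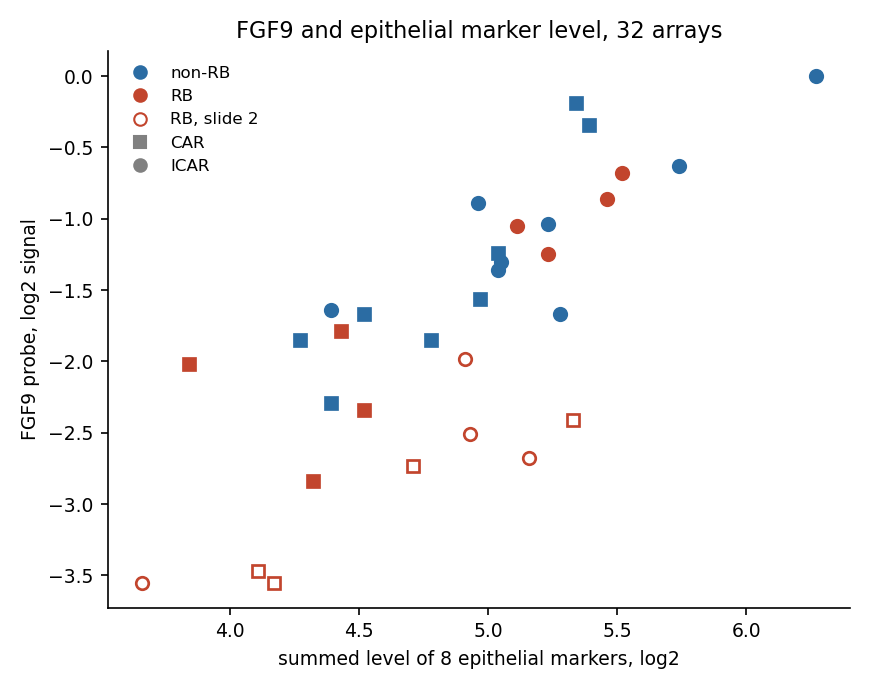
FGF9 level (vertical axis, log2 signal) against the summed level of 8 epithelial markers (horizontal axis, log2) on the 32 arrays. Blue is non-RB, red is RB, open red is RB on slide 2, squares are CAR and circles ICAR. FGF9 was higher on arrays with more epithelial marker signal (r = 0.763), and the 8 open points lie at or below -1.98.

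FGF2, a ligand that acts on endothelium and stroma, had a higher mean in RB cows in CAR by its ABR7076 probe. In the ipsilateral CAR its level was -6.94, -7.02, -5.64 and -6.35 in non-RB replicates 1 to 4 and -6.27, -5.59, -4.35 and -4.94 in RB replicates 1 to 4. RB replicates 2, 3 and 4 were above every non-RB cow and RB replicate 1 was not. The difference was 1.20 (SE 0.45, interval 0.19 to 2.21, limma p = 0.0247, adjusted p = 1; exact permutation p = 0.0571). FGF9 and FGF2 were the 2 of 7 members with an unadjusted limma p under 0.05 in this compartment, a threshold that 3.41% of all probes passed. Since FGF9 was known from the study's list for this compartment, the count gives no separate support for a change in the members. The FGF2 difference was 0.43 with normexp background correction, on a probe whose intensity was only 14.7 to 201.5, and 0.88 without the arrays of slide 2, and its unadjusted limma p was above 0.05 in both. It was also above 0.05 with slide as a block and by the methods' t-test.

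The other FGF2 probe gave no such difference. On it the ipsilateral CAR level was -0.96, -0.64, 0.66 and -0.89 in non-RB replicates 1 to 4 and -0.51, -0.55, 0.38 and -0.54 in RB replicates 1 to 4, with the groups overlapping throughout. The difference was 0.15 (SE 0.40, interval -0.74 to 1.04, exact permutation p = 0.571). Whether both probes detect the same FGF2 transcripts was not tested. On ABR7076 the difference was 0.77 in the contralateral CAR (SE 0.49, exact permutation p = 0.229), 0.03 in the ipsilateral ICAR and 0.26 in the contralateral ICAR.

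FGF1, the acidic FGF that binds all the main receptor forms, had a higher mean in RB cows in all 4 compartments. In the ipsilateral ICAR its level was -2.87, -3.66, -3.51 and -3.02 in non-RB replicates 1 to 4 and -2.61, -0.85, -1.85 and -3.05 in RB replicates 1 to 4. RB replicates 2 and 3 lay far above the non-RB cows, and RB replicates 1 and 4 lay near or within their range. The difference of 1.18 (SE 0.45, interval 0.17 to 2.19) had a limma p of 0.0271 and an adjusted p of 0.863, and the exact permutation p was 0.0857. FGF1 was the 1 of 7 members past an unadjusted p of 0.05 here, which 3.69% of the 12889 probes passed. Both ciliated-cell markers (TEKT1 and DNAI1) had a positive difference in this compartment, of 1.63 and 0.60, with 0 of 2 past the adjusted test, and their summed level was -6.26 to -3.54 in non-RB and -4.45 to -3.02 in RB cows. Over the 32 arrays FGF1 correlated with that sum with r = 0.499 and with summed stromal markers with r = -0.575. Both ciliated-cell markers also had positive differences in the ipsilateral CAR (median 0.44) and the contralateral CAR (median 0.58). In the contralateral ICAR both had negative differences (-0.70 and -0.37), the opposite sign to FGF1. The part of ciliated and stromal content in the FGF1 result was not tested.

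The difference in FGF1 was 0.64 (SE 0.67) in the ipsilateral CAR, 0.30 (SE 0.49) in the contralateral CAR and 0.74 (SE 0.35) in the contralateral ICAR, with exact permutation p of 0.486, 0.743 and 0.114. On the arrays of slide 2 the FGF1 level was -2.23 to -0.85 over both compartments, and on the other 8 RB arrays -4.17 to -2.61, so that the RB cows fell into separate ranges. The 16 non-RB arrays spanned -4.57 to -1.82. The value of -1.82 was that of non-RB replicate 2 of the contralateral CAR, an uneven array of slide 1. The remaining non-RB arrays lay at -2.46 or below. Without slide 2 the difference between the groups was -0.46 and -0.32 in the CAR of the ipsilateral and contralateral horns, and 0.44 and 0.20 in the ICAR.

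FGFR3, a receptor for FGF9 and FGF1, showed the same division among RB cows. In the ipsilateral ICAR its level was -3.50, -2.98, -3.22 and -3.42 in non-RB replicates 1 to 4 and -3.63, -4.14, -4.31 and -3.39 in RB replicates 1 to 4. The difference was -0.58 (SE 0.26, interval -1.17 to 0.00, adjusted p = 0.863 by limma; exact permutation p = 0.0857). It was -0.57 (SE 0.30, exact permutation p = 0.0857) in the ipsilateral CAR, -0.23 (SE 0.28) in the contralateral CAR and 0.00 (SE 0.33) in the contralateral ICAR. All 8 arrays of slide 2 lay between -4.31 and -4.02 and the other 8 RB arrays between -3.63 and -3.18, whereas the non-RB arrays spanned -4.48 to -2.49. The value of -4.48 was that of non-RB replicate 1 of the contralateral ICAR, an uneven array of slide 1. The remaining non-RB arrays lay at -3.80 or above. Without slide 2 the differences were -0.33 and -0.23 in the ipsilateral CAR and ICAR, and 0.20 and 0.37 in the contralateral CAR and ICAR.

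FGF10, the stromal ligand of the epithelial receptor form, differed by -0.07 to 0.33 over the 4 compartments, with limma p of 0.384 or more. FGFR2, its receptor, differed by -0.55 to -0.06, negative in all 4 compartments, with limma p of 0.223 or more. FGFR1 differed by -0.16 to 0.02 in the 3 compartments where it was tested. These differences were smaller than or near the spread between cows, and the 95% intervals still reached from -1.64 to 1.49 for FGF10, from -1.50 to 0.59 for FGFR2 and from -1.39 to 1.07 for FGFR1. The median difference over the members tested was -0.03 in the ipsilateral CAR, 0.02 in the ipsilateral ICAR, -0.16 in the contralateral CAR and -0.03 in the contralateral ICAR, against 0.02, -0.03, 0.00 and 0.02 over all probes. In the contralateral horn 0 members passed an unadjusted limma p of 0.05 (0 of 7 in CAR and 0 of 6 in ICAR), where 1.74% and 1.6% of all probes did. By the methods' t-test, too, 0 of all probes passed after Benjamini-Hochberg adjustment in each of the 4 compartments.

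**Figure D4:**
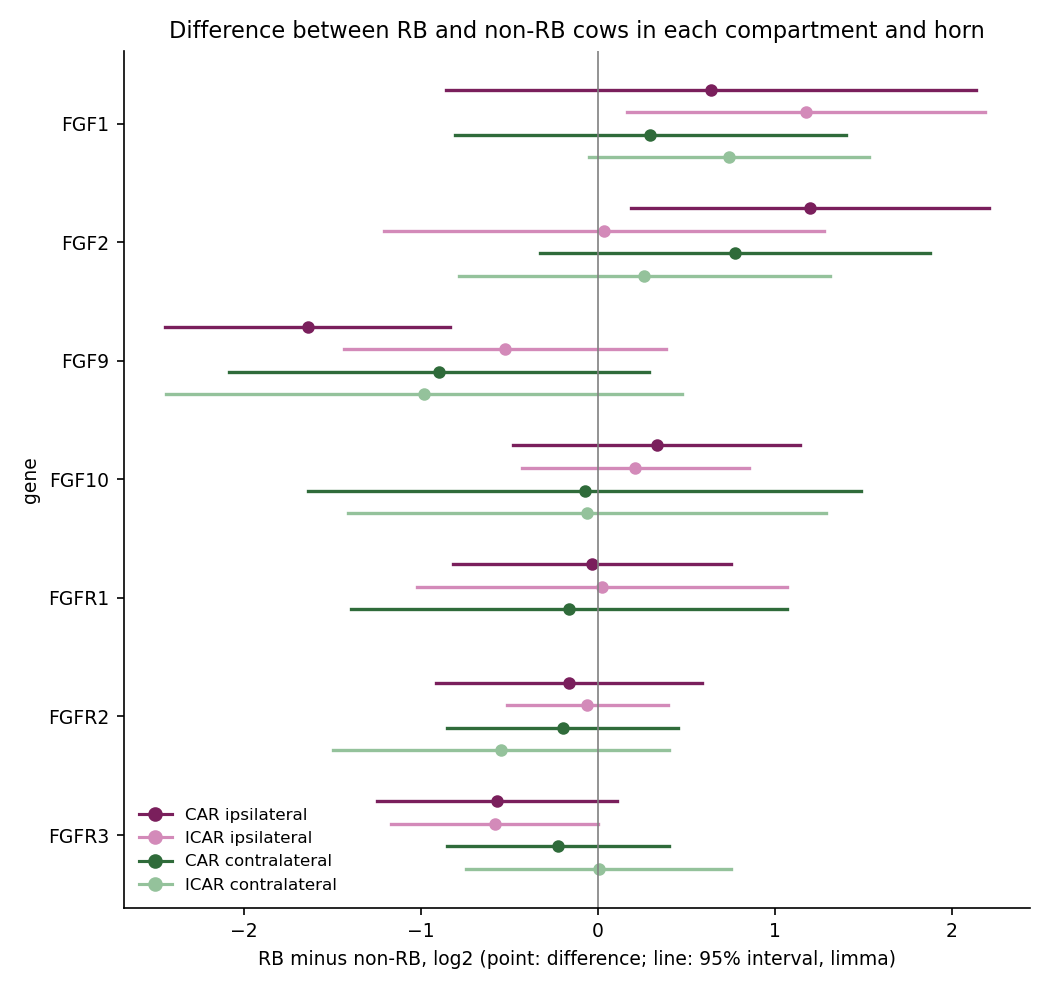
Difference between RB and non-RB cows for each member (horizontal axis, RB minus non-RB, log2; point, difference; line, 95% interval from limma) in the 4 compartments, given by colour. FGFR1 was not tested in the contralateral ICAR. The intervals of FGF9 and FGF2 in the ipsilateral CAR (-1.64 and 1.20) and of FGF1 in the ipsilateral ICAR (1.18) lie wholly on one side of 0.

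Over the whole uterus, with the 4 arrays of a cow averaged, FGF9 had a level of -0.29, -1.53, -1.62 and -1.45 in non-RB cows 1 to 4 and -1.54, -2.69, -3.03 and -1.67 in RB cows 1 to 4. The groups overlapped, since RB cow 1 lay among the non-RB cows. The difference was -1.01 (SE 0.41, interval -1.93 to -0.09, limma p = 0.034, adjusted p = 1; exact permutation p = 0.0571). It was -0.38 without the arrays of slide 2. FGF1 differed by 0.71 (SE 0.42) and FGF2 by 0.57 (SE 0.38), and the other members by -0.34 to 0.10. FGF9 was the 1 of 7 members with an unadjusted p under 0.05, which 2.21% of the 12919 probes reached. The adjusted test was passed by 0% of probes. These cow means include the ipsilateral CAR arrays, from which FGF9 was known through the study's list. The count and the p-values of FGF9 here therefore give no separate support.

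The following comparison asked whether the members differ between the caruncular and the intercaruncular endometrium, over RB and non-RB cows. FGF9 and FGF10 leaned opposite ways. FGF9 was higher in ICAR in 14 of 16 pairs of CAR and ICAR from the same cow and horn, 7 of 8 in RB and 7 of 8 in non-RB cows. FGF10 was higher in CAR in 14 of 16 pairs, 7 of 8 in each group of cows. The comparison was fitted by limma over all 32 arrays with group and horn as terms. It had no term for the cow, so it ignored the pairing and counted the arrays of a cow as independent. In it 0 of 7 members passed an adjusted p of 0.05, where 1.35% of the 12919 probes did, and 1 of 7 had an unadjusted p under 0.05, against 16.2% of probes.

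For FGF9 the difference, CAR minus ICAR, was -0.56 (SE 0.26, interval -1.10 to -0.03, limma p = 0.0397, adjusted p = 0.274), and the exact sign-flip permutation test over 8 cows gave p = 0.0391. With the cow as a replicate block the adjusted p was 0.0409, so that FGF9 passed the test there. That fit counts both horns of a cow as separate pairs. With the cow as the unit the SE was 0.18 and the limma p was 0.0113 (adjusted p = 0.159). The CAR mean of FGF9 was above its ICAR mean in 2 of 8 cows. The mean difference was -0.82 in RB cows and -0.31 in non-RB cows. In single pairs the difference ran from -1.98 to 1.15. All these FGF9 tests also use the ipsilateral CAR arrays, from which FGF9 was known, and are not independent of that choice.

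For FGF10 the difference was 0.44 (SE 0.26, interval -0.09 to 0.98, limma p = 0.103, adjusted p = 0.439; exact sign-flip permutation p = 0.0156). Its CAR mean was above its ICAR mean in 7 of 8 cows. With the cow as the unit the SE was 0.14 and the limma p was 0.0104 (adjusted p = 0.156). FGF2 had a difference of 0.41 (SE 0.27, adjusted p = 0.494 by limma) and was higher in CAR in 12 of 16 pairs. With the cow as the unit its limma p was 0.0313 (adjusted p = 0.24). The other FGF2 probe gave 0.45 (SE 0.20, adjusted p = 0.247 by limma; exact sign-flip permutation p = 0.0234), with CAR higher in 14 of 16 pairs, so that the pair of FGF2 probes leaned the same way here.

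FGF1 differed by -0.28 (SE 0.27) and was higher in ICAR in 13 of 16 pairs, in all 8 pairs of RB cows and in 5 of 8 pairs of non-RB cows. FGFR2 differed by -0.31 (SE 0.16, adjusted p = 0.342 by limma) and was higher in ICAR in 12 of 16 pairs. FGFR1 and FGFR3 differed by 0.21 (SE 0.23) and 0.14 (SE 0.14), each with the higher level in CAR in 11 of 16 pairs. Epithelial markers were lower in CAR on balance, with 7 of 8 negative differences, a median of -0.38 and 1 of 8 past the test (FOXA2, a transcription factor of uterine glands, at -1.69 with an adjusted p of 0.0361 by limma). All 7 stromal markers had a positive difference, with a median of 0.44 and 0 past the test. The part of gland and stromal content in the differences of the members was not tested.

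**Figure D5:**
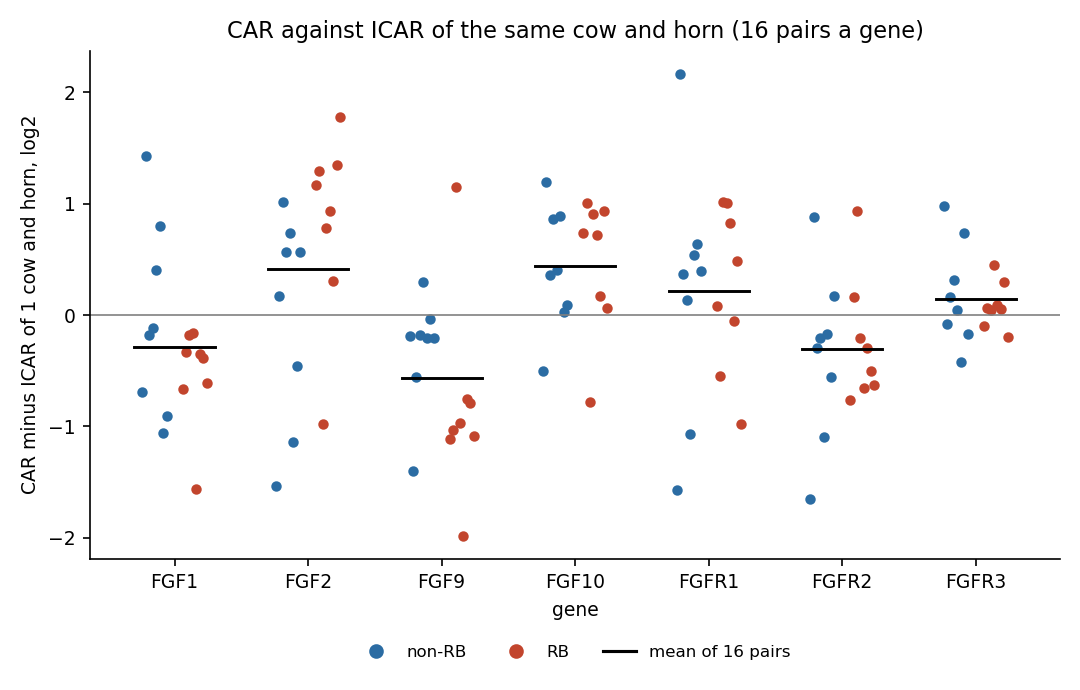
Difference between CAR and ICAR of the same cow and horn (vertical axis, log2) for each member, 16 pairs a gene. Blue points are non-RB and red points RB cows, and the black line is the mean of 16 pairs. FGF9 points lie mostly below 0 (14 of 16) and FGF10 points mostly above (14 of 16).

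Whether the difference between RB and non-RB cows itself depended on the compartment was tested on each cow's CAR mean minus ICAR mean. For FGF9 that difference of differences was -0.51 (SE 0.36, interval -1.33 to 0.30, adjusted p = 1 by limma; exact permutation p = 0.286), so a larger gap in CAR than in ICAR was not shown. For FGF2 it was 0.84 (SE 0.33, interval 0.11 to 1.57, limma p = 0.0287, adjusted p = 1; exact permutation p = 0.0857), and the other members had -0.51 to 0.12. FGF2 was the 1 of 7 members under an unadjusted p of 0.05, which 0.882% of probes reached. On the other FGF2 probe the same value was -0.09 (exact permutation p = 0.857).

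No member passed the test between the horns. The widest difference was that of FGF10, at -0.41 (SE 0.26, exact sign-flip permutation p = 0.188), with the higher ipsilateral level in 2 of 8 cows. Ipsilateral minus contralateral differences of the 7 members lay between -0.41 and 0.28, with intervals that together spanned -0.95 to 0.75, and 0 of 7 had an unadjusted limma p under 0.05, against 1.36% of all probes. The RB effect differed between horns by -0.47 to 0.39, with 0 of 7 members under an unadjusted limma p of 0.05, against 5.98% of probes. In both comparisons 0% of probes passed the adjusted test.

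Ordered by mean level over the 8 groups, FGF9 ran from non-RB ICAR contralateral (-0.97), non-RB ICAR ipsilateral (-1.17), non-RB CAR ipsilateral (-1.21) and non-RB CAR contralateral (-1.55) to RB ICAR ipsilateral (-1.69), RB ICAR contralateral (-1.95), RB CAR contralateral (-2.44) and RB CAR ipsilateral (-2.85). The 4 non-RB groups thus held the higher ranks. The 4 groups of a status share the same 4 cows, so their ranks are not separate results. The order also includes the ipsilateral CAR, from which FGF9 was known. None of the 7 gaps between neighbours in this order exceeded the pooled SD of the neighbours. FGF1 ran the other way, with the 4 RB groups at -2.09 to -2.81 and the 4 non-RB groups at -3.08 to -3.45. Again 0 of 7 gaps exceeded the pooled SD. FGF2 on ABR7076 also had the 4 RB groups (-5.29 to -6.38) above the 4 non-RB groups (-6.41 to -6.49). On the other FGF2 probe the groups were mixed, from non-RB CAR contralateral (-0.21) to non-RB ICAR ipsilateral (-0.86).

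Members varied together over the 32 arrays in some pairs. FGF2 and FGF9 had r = -0.76 (-0.683 after the group means were removed) and FGF1 and FGFR3 r = -0.678 (-0.652). FGF2 correlated with the epithelial sum with r = -0.704 and with summed smooth muscle markers with r = 0.639, and FGFR3 with summed stromal markers with r = 0.668. The arrays share cows and slides, so these are descriptions. Among 5834 named probes, those most like FGF9 were HOMER2 (r = 0.928), HNF-1B (0.879) and CLIC1 (0.879). The probes most like FGF1 were CCNT1 (0.917), MIS12 (0.881) and ANKRD49 (0.855), and most like FGF10 were ASPH (0.884), GFPT1 (0.845) and CAPN2 (0.841). For FGF2, among 5833 probes, they were PRKG1 (0.881), TCEAL1 (0.859) and GHR (0.856). Among the receptors, FGFR3 was most like UBE1L (0.938), PELI3 (0.906) and VISA (0.904), FGFR2 most like SYT2 (0.784), MPPED2 (0.738) and PPM1K (0.726), and FGFR1, mostly at background, most like BAIAP2 (0.802), EVC (0.796) and EPOR (0.792).

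The rest of the FGF pathway, together with uterine regulators of FGF signalling, was read from a list of 112 genes, of which 47 had a probe and 44 were tested. Between RB and non-RB cows 0 of 44 passed an adjusted p of 0.05 by limma in each of the 4 compartments. In the ipsilateral CAR 1 of 44 was higher and 3 of 44 lower in RB at an unadjusted p under 0.05, where 1.44% and 1.96% of all probes were, and the median difference of the list was 0.00, against 0.02 over all probes. In the ipsilateral ICAR 2 were higher and 1 lower (2.23% and 1.45% of all probes), in the contralateral CAR 0 and 1 (1.2% and 0.533%), and in the contralateral ICAR 1 and 0 (0.701% and 0.901%).

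Of the other receptors and binding proteins, FGFBP1, which releases FGFs from heparan sulfate, had a lower mean in RB cows in all 4 compartments. Its difference was -1.42 (SE 0.60) in the ipsilateral and -1.44 (SE 0.60) in the contralateral CAR, and -0.67 (SE 0.52) in the contralateral ICAR. The unadjusted limma p was under 0.05 in both CAR groups and in the ipsilateral ICAR, and the adjusted p was 0.863 or 1. FGFBP1 was picked out after its values were seen. FGFR4, the remaining receptor of the family with a probe, was well above background on 2 of 32 arrays and was not tested.

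Feedback inhibitors of FGF signalling had a median difference of -0.37 in the ipsilateral CAR, with 2 of 4 lower in RB at an unadjusted limma p under 0.05, as were 1.96% of all probes. These were DUSP4 (-1.34, SE 0.46), picked out after its values were seen, and SPRY2 (-0.61, SE 0.26), both with an adjusted p of 1. SPRY2 differed by -0.12 in the ipsilateral ICAR, -0.50 in the contralateral CAR and -0.52 in the contralateral ICAR. SPRY4 (-0.12 to 0.06 over the compartments) and DUSP6, a phosphatase of extracellular signal-regulated kinase (-0.60 to 0.08), had small or uneven differences.

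SDC1, a heparan sulfate proteoglycan of epithelium, differed by 0.68 in the ipsilateral CAR (SE 0.25, adjusted p = 1 by limma) and by 0.02 to 0.39 in the other 3 compartments. Among the response genes, ETV5, a transcription factor induced by FGF signals, had differences of -0.35 to -0.18, and 0 of the 7 response genes passed an unadjusted p of 0.05 in any compartment. PGR, the progesterone receptor, differed by 0.18 to 0.54, positive in all 4 compartments.

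Between CAR and ICAR, 2 of the 44 listed genes passed an adjusted p of 0.05 by limma, both lower in CAR, where 0.96% of all probes were, and 0 were higher, where 0.387% were. Both belong to the uterine regulators of the list, and no gene of its other parts passed. FOXA2 is the gene already given above among the epithelial markers. IHH, a hedgehog ligand of uterine epithelium, differed by -1.62 (SE 0.39, adjusted p = 0.0379 by limma). With the cow as the unit their adjusted p was 0.105 and 0.102, and without any 1 of 6 of the cows no probe of the array passed. DUSP6 differed by -0.53 (SE 0.21, adjusted p = 0.169 by limma), SPRY2 by -0.20, SPRY4 by 0.24, SDC1 by 0.05, ETV5 by -0.08 and PGR by -0.02.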

How the data were processed

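RNA from 32 endometrial samples was hybridised by the authors to a bovine oligonucleotide array in Cy3 and read with Agilent Feature Extraction 9.5. The deposited files give a processed intensity per spot, background-subtracted by that software, with flags for signal well above background, outliers and saturation. A second deposited file holds the authors' log2 values, and these lie above the values computed here by a constant of 0.0042 to 0.014 per array. The files name spots by an accession, a gene name or a probe ID, given here as they stand. The gene names of probes with an accession were looked up in RefSeq where possible (2514 of 4300 matched).

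From the intensities, log2 values were taken relative to the 75th percentile of each array, with outlier spots left out. Differences were tested with limma 3.58.1 in R 4.3.3 and adjusted by the Benjamini-Hochberg method over the probes kept by a filter, which asked for signal well above background on 2 of 8 arrays (comparisons within a compartment) or 8 of 32 arrays. The whole uterus was tested on cow means, CAR against ICAR and the horns on all arrays with the remaining factors as terms. The fits on all arrays had no term for the cow. Members also had two-sided exact permutation tests: 4 against 4 (35 distinct splits, smallest p 0.0286) or sign flips over 8 cows (smallest p 0.00781). The number of arrays limits the precision. The code was tested on simulated data. Labels number the replicates but do not name cows. Arrays of the same number within a group deviated together from their group means (mean r 0.413 in RB, above 0.1 in 22 of 24 pairs, and 0.382 in non-RB, 21 of 24), and in part these pairs shared a slide. Arrays of different numbers had a mean r of -0.138 in RB and -0.123 in non-RB. RB and non-RB arrays of the same number, compartment and horn had a mean r of 0.136, above 0.1 in 11 of 16 pairs. A shared number thus went with some correlation even without a shared cow. RB and non-RB cows are different animals.

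Named genes were the 8 members, 11 pathway genes fixed by name where they had a probe, list genes past the adjusted test (at most 8 in each direction) and, for each member, the 3 named probes with the highest correlation. Members and lists were chosen with earlier results of these data known. FGFRL1, ETV4, IL17RD and HAND2 had no probe. DUSP4 and FGFBP1 were added after their values were seen. Alternatives covered normexp (offset 50), quantile normalization, filters on dim probes, the authors' log2 file, the t-test of the methods, slide, session and replicate blocks, and leaving out arrays. Leaving out slides 1 and 2 was added after seeing the data.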

Additional observations from a re-analysis of the deposited data

Results flagged for a closer look

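Within each group of 4 arrays, the array farthest from the rest was compared with the range of the group for the 9 probes followed (the 8 member probes and the other FGF2 probe), and 7 arrays stood apart in the 72 tests, where chance alone gives about 1 in 20 tests. FGFR1 was at -5.98 in non-RB replicate 2 of the contralateral CAR, against -8.36 to -8.26 in the other non-RB arrays, and that array is one of the uneven arrays of slide 1. FGF10 was at -5.32 in RB replicate 4 of the ipsilateral CAR, against -4.30 to -4.10, and at -5.52 in RB replicate 4 of the contralateral ICAR, against -4.53 to -4.34, so the same cow stood low in both. The other FGF2 probe was at 0.38 in RB replicate 3 of the ipsilateral CAR, against -0.55 to -0.51, and at 0.53 in RB replicate 3 of the contralateral ICAR, against -1.02 to -0.87. FGFR2 was at 0.87 on ABR7075 in RB replicate 2 of the ipsilateral CAR, against 0.49 to 0.55. Its other probe was at 1.45 in non-RB replicate 4 of the ipsilateral ICAR, against 0.69 to 0.81. No FGF9, FGF1 or FGFR3 array met this criterion.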

How the results depend on the processing

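The count of members past an adjusted p of 0.05 by limma was 0 in all 9 comparisons under every alternative, except CAR against ICAR with the replicate block, where it was 1 (FGF9, -0.56, adjusted p = 0.0409). The FGF9 difference in the ipsilateral CAR stayed between -1.81 and -1.35 under its 19 alternatives (unadjusted limma p at most 0.0144, lowest adjusted p 0.508). No slide held both groups there, so slide entered as a random block and not as a fixed term as in the other compartments. That setting could not take out a slide difference between the groups. Over all probes, the count for CAR against ICAR was 174 and became 64 with normexp, 1086 with the replicate block, 531 with scan session as a block, 0 with the cow as the unit, 0 without the arrays of slide 1 and 0 to 915 without single cows (915 without RB replicate 3, 717 without non-RB replicate 2 and 0 without any other cow). The cause was not tested. The whole uterus went from 0 to 66 probes with 16 against 16 arrays, a fit that counts arrays of a cow as independent. The horn comparison went from 0 to 1 with the replicate block, with slide as a block and with session as a block, and the contralateral ICAR from 0 to 1 without slide 1, and to 0 to 1 without single arrays. The replicate block changed no other call.

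Several differences between RB and non-RB cows turned sign, among them those of FGF9 in the contralateral ICAR (-0.98 as reported) and of FGF1 in the ipsilateral CAR (0.64) and the whole uterus (0.71). With slide as a block these were FGF9 in ICAR (0.44 ipsilateral, 0.23 contralateral), FGF2 in ICAR (-1.43 and -0.44) and FGFR3 in the contralateral CAR (0.28). With session as a block they were FGF9 (0.34) and FGF2 (-0.24) in the contralateral ICAR and FGFR3 in the contralateral CAR (0.26). With normexp, FGF2 was -0.15 in the ipsilateral and -0.43 in the contralateral ICAR and FGFR3 -0.43 there, and with quantile normalization FGFR3 was -0.0497 there. Without slide 2, FGF1 was -0.46 (ipsilateral CAR), -0.32 (contralateral CAR) and -0.0352 (whole uterus), FGF9 0.11 and 0.10 in ipsilateral and contralateral ICAR, FGF2 -0.55 and -0.40 there, FGFR3 0.20 in the contralateral CAR, and the other FGF2 probe -0.0671 in the ipsilateral CAR. Without slide 1, FGFR3 was -0.21 in the contralateral ICAR. Without single arrays the ranges that crossed 0 were -0.39 to 0.44 for FGF2 in the ipsilateral and -0.18 to 0.61 in the contralateral ICAR, -0.21 to 0.20 for FGFR3 in the contralateral ICAR, and -0.0762 to 0.53 for the other FGF2 probe in the ipsilateral CAR. The cause was not tested. In all, 528 of 561 values of the 30 differences examined kept their sign and their side of the threshold. FGFR1 lies near background, which limits every statement on it.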
